A study of Mus musculus with 32 samples.

Results

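The 10 genes described here encode enzymes that reduce, oxidize or hydrolyse reactive quinones, carbonyls, aldehydes and epoxides, and they were taken by gene symbol from a table of 34453 Ensembl genes counted in retinal pigment epithelium (RPE) RNA. All 10 had a row, with counts, and all 10 passed the filter on low counts in each of the 5 comparisons. The libraries came from 16 mice, 7 at P20 and 9 at P40. In each mouse the eye called the Nrf2 eye had received AAV-Best1-Nrf2, which carries human Nrf2 complementary DNA (gene NFE2L2) behind the RPE-specific human Best1 promoter, together with AAV-Best1-GFP. The fellow eye, the control eye, had received AAV-Best1-GFP only, so every eye carried a virus and GFP. The eyes were not matched for virus. By the methods the Nrf2 eye received a higher total dose, and its Nrf2 vector had a capsid that the GFP vector did not have. Effects of dose or capsid therefore cannot be told apart from those of Nrf2 in any comparison of eyes. The labels give all 16 mice as rd1, a line on the FVB/N background with a loss of Pde6b function in which rods and then cones degenerate. The study's methods describe both rd1 and CD1 (wild-type) pairs at P40, more of CD1 than of rd1, and together as many as the P40 pairs labelled rd1 here. By these numbers CD1 pairs may be among the P40 mice, possibly as most of them, but the numbers alone do not show that any is. The labels name no CD1 pair, so strain could not be taken into account. At P20 the numbers do not match, as the methods give fewer rd1 pairs than the labels. The retina was removed before RNA was collected from the eyecup, and the RNA was amplified before sequencing. The 2 sequencing runs are not assigned to libraries, so an effect of the run cannot be told apart from the groups. The titles of all P20 libraries begin with the letter M and those of all P40 libraries with A, in both eyes of a mouse. What the letter stands for is not given, and any batch behind it could not be told apart from age.

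Nrf2 is a transcription factor that is held at a low level by Keap1 and released by electrophiles and oxidants, after which it binds antioxidant response elements near genes for detoxification. Quinones and the unsaturated aldehydes formed when membrane lipids oxidize react with proteins and DNA. The RPE, which takes up oxidized photoreceptor membranes and handles retinaldehyde, is exposed to both. The enzymes fall into classes. Nqo1 reduces quinones to hydroquinones without a semiquinone intermediate. Cbr1 and Cbr3 are short-chain carbonyl reductases, Akr1b3 (aldose reductase), Akr1b8, Akr1b10 and Akr1c13 are aldo-keto reductases, Aldh3a1 oxidizes aldehydes to acids, Ephx1 (microsomal epoxide hydrolase) opens epoxides, and Ptgr1 reduces the double bond of alkenals and of some prostaglandins.

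The genes lie on 7 chromosomes of mouse build mm10. Nqo1 (ENSMUSG00000003849) spans chr8:107388225-107403206 on the minus strand, Ephx1 (ENSMUSG00000038776) chr1:180976210-181020904 on the minus strand, and Ptgr1 (ENSMUSG00000028378) chr4:58965439-58987119 on the minus strand. Cbr1 (ENSMUSG00000051483, chr16:93605853-93610505) and Cbr3 (ENSMUSG00000022947, chr16:93683215-93690990) are neighbours on the plus strand. Akr1b3 (ENSMUSG00000001642, chr6:34302434-34317478), Akr1b8 (ENSMUSG00000029762, chr6:34354119-34368463) and Akr1b10 (ENSMUSG00000061758, chr6:34384218-34396950) form a cluster. Akr1c13 (ENSMUSG00000021213) is at chr13:4191150-4205596 and Aldh3a1 (ENSMUSG00000019102) at chr11:61207537-61218421. Some of them share sequence with close relatives, which bears on how reads are assigned. Of the 31-base words in the principal transcript of Akr1c13, 39.2% also occur in Akr1c12, a gene that itself reached at most 0.785 CPM (counts scaled to library size). Akr1b8 shares 7.08% of its words with Akr1b10 and Akr1b10 shares 6.56% with Akr1b7, so the values of these 3 aldo-keto reductases are less certain than those of Nqo1, Ephx1 or Ptgr1, for which no shared word was found. Cbr1 shares 2.4% of its words with Cbr3.

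The sequences just upstream of the 3 members that differed most between eyes, or are best known as Nrf2 targets, are shown because the treatment acts through a DNA-binding factor. Each runs from 250 bases before to 50 after the RefSeq start site (GRCm38.p6, the build that mm10 names), 5′ to 3′ on the gene's strand, for Nqo1 chr8:107403156-107403455, for Cbr3 chr16:93682969-93683268 and for Ptgr1 chr4:58987029-58987328. Capitals mark TATAAA and GGGCGG (a GC box) on either strand.
Nqo1: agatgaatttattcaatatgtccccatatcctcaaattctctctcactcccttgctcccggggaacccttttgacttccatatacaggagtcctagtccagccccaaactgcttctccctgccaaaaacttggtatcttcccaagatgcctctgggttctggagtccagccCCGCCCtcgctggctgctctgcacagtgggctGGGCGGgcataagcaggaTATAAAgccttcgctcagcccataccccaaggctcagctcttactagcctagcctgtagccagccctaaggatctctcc
Cbr3: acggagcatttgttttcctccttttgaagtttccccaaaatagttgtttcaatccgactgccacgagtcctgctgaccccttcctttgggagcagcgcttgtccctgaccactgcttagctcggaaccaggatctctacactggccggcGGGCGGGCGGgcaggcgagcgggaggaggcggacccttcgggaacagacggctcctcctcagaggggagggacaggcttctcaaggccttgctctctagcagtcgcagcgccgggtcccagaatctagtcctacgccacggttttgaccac
Ptgr1: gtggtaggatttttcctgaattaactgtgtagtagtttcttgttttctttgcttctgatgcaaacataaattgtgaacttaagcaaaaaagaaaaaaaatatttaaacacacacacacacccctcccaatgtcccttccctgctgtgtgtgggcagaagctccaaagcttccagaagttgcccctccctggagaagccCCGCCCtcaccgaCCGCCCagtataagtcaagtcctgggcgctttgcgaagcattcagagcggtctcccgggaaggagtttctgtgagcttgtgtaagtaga
The core of the antioxidant response element was searched as TGACNNNGC on both strands. It occurred in 0 of the 8 members that have a window in the RefSeq table, and in 12.4% of all 32851 windows of the same length. The GC box occurred in 6 of the 8 against 35.7% of all windows. In Nqo1 a TATAAA began at position -29 from the start site and GC boxes at -79 and -47. Cbr3 has overlapping GC boxes at -101 and -97, and Ptgr1 has GC boxes at -52 and -39. TATAAA was also found in the windows of Ephx1 and Akr1b8, making 3 of 8 against 13.6% of all windows. These letters are descriptions of the windows and show neither binding nor its absence.

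The libraries held between 16548332 and 50542797 counts each. RPE markers (Rpe65, Best1, Ttr and 7 others) were detected in every group and summed to between 6094 and 70382 CPM per library. The median sum was 15073 CPM in control and 17330 CPM in Nrf2 eyes at P20, and 33933 and 19725 CPM at P40, with overlapping ranges. The transgene checked the labels. NFE2L2 stood between 3205 and 10438 CPM in the 9 Nrf2 eyes at P40 and between 0 and 99.2 CPM in their control eyes. At P20 it reached from 1082 to 9506 CPM in Nrf2 eyes and from 0.924 to 1098 CPM in control eyes, and the groups overlapped. The median of NFE2L2 in these control eyes was 47.2 CPM. Its log2 fold change at P20 was 7.36 and did not pass the edgeR test (adjusted P = 0.0601), while that of 13.3 at P40 did (adjusted P = 0.000672). The overlap came from the library labelled control of mouse 3 (1098 CPM) and the library labelled Nrf2 of mouse 4 (1082 CPM). These libraries, from different mice by their labels, were also closer to each other than any of the other 495 pairs of libraries. Over 10173 genes of at least 10 CPM their root mean square log2 difference was 0.197, against 0.375 for the next closest pair and a median of 0.992. Their counts differed with a chi-square of 9.08 per degree of freedom, against 78.3 for the next closest pair. This covers counting error only and does not show whether amplified libraries came from separate samples. They were kept apart because the labels give different mice and groups, and P20 results are also given without mice 3 and 4. Mouse Nfe2l2 itself averaged 69.4 ± 12.8 CPM (SD, n = 7) in control eyes at P20 and 85.0 ± 7.57 in Nrf2 eyes, a difference that did not pass the test (adjusted P = 0.203). Keratin and other markers of corneal and conjunctival epithelium (Krt12, Krt5, Krt14, Krt13 and Trp63) varied widely, from a sum of 111 CPM to 47251 CPM. The sum was lower in the Nrf2 eye in 6 of 7 mice at P20 and in 6 of 9 at P40. None of the 5 markers was at 0 throughout a group. Cone markers (7 genes) summed to a median of 280 CPM in control and 20.9 CPM in Nrf2 eyes at P20, and to 763 and 39.9 CPM at P40. The 7 rod markers had medians of 45.0 and 7.71 CPM at P20 and of 57.6 and 7.77 CPM at P40. The 4 markers shared by rods and cones went the other way, with medians of 111 and 378 CPM at P20 and of 189 and 449 CPM at P40. The part of these cell types in the results was not tested unless a value is given beside them, and in bulk RNA a change in the share of cells cannot be told apart from a change per cell.

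The first question was whether Nrf2 delivered to the RPE changed these enzymes within a mouse. Nqo1, Cbr1, Cbr3, Ephx1 and Ptgr1 were higher in the Nrf2 eye at both ages, and the other 5 members did not pass the test at either age. Ptgr1 and Cbr3 changed most, by about 10-fold or more, Nqo1 by about 4-fold, and Cbr1 by a little over 2-fold. At P20, 5 of the 10 rose and 0 fell, where 2.93% of the 16303 genes tested rose and 0.485% fell. At P40, 5 of 10 rose and 0 fell, against 3.33% and 1.23% of 16686 genes. The median log2 fold change over the 10 members was 0.92 at P20 and 1.26 at P40, beside -0.04 and -0.03 over all genes tested. Folds and adjusted P values are from edgeR's quasi-likelihood test with mouse as a block, adjusted by Benjamini-Hochberg over all genes tested.

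**Figure D1:**
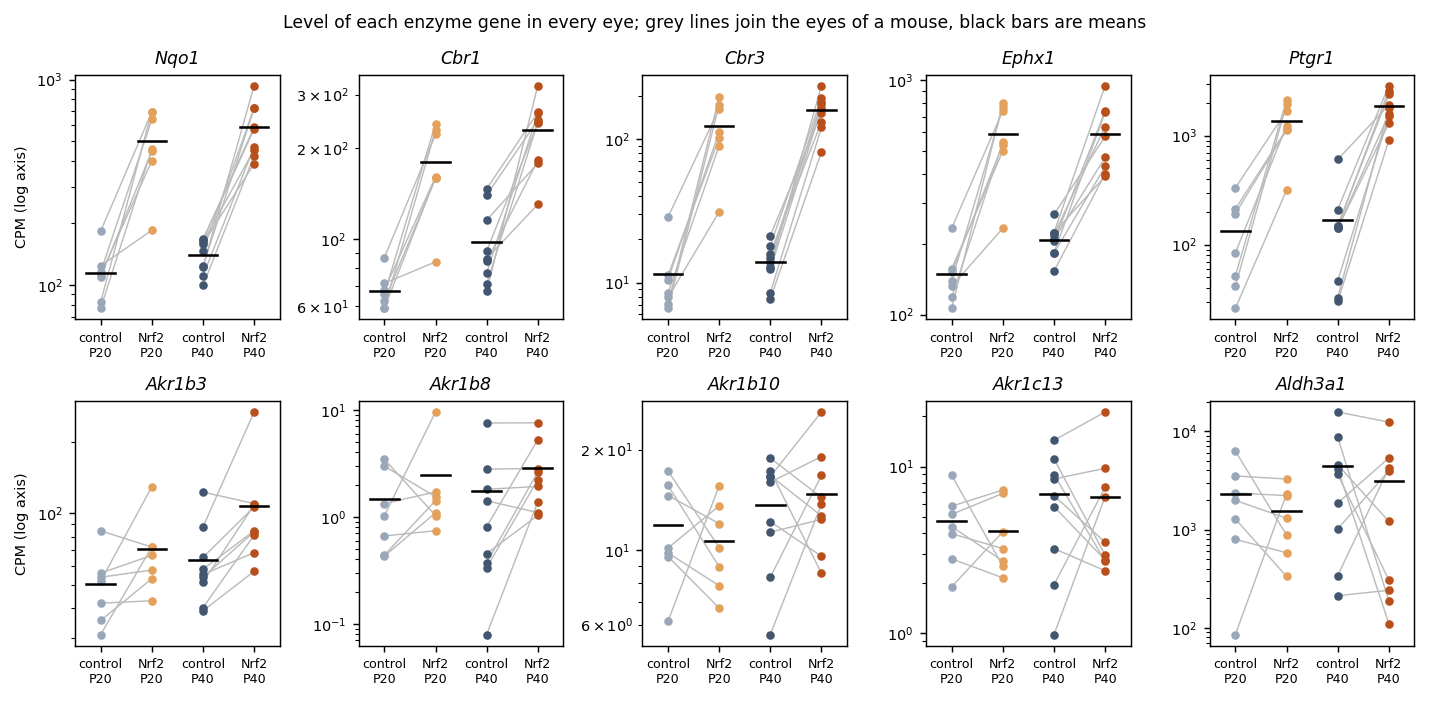
Levels of the 10 enzyme genes in CPM on log axes in each of the 32 eyes, with grey lines joining the eyes of a mouse and black bars at group means. Every line of Nqo1, Cbr1, Cbr3, Ephx1 and Ptgr1 goes up from control to Nrf2, and the lines of the other 5 genes cross.

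Nqo1, the quinone reductase, ranged in control eyes at P20 from 76.9 to 183 CPM with a median of 112. In Nrf2 eyes it ranged from 184 to 699 CPM with a median of 458. The groups did not overlap, but only just, because the closest values were those of the libraries of mice 3 and 4. At P40 the range was from 99.2 to 166 CPM (median 147) in control eyes and from 389 to 934 CPM (median 574) in Nrf2 eyes, a clear gap. In log2 units the fitted change was 2.05 ± 0.26 (adjusted P = 0.00970) at P20 and 2.00 ± 0.19 (adjusted P = 9.97e-05) at P40. For log2 fold changes ± gives an SE throughout, computed back from the change and its F statistic, and for levels in CPM it gives the SD. The eye difference on the log2 CPM scale was positive in 7 of 7 and 9 of 9 mice, smallest in P20 mouse 4 (0.57) and largest in P20 mouse 1 (3.08).

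The carbonyl reductases differed in their level and in the size of their change. Cbr1 stood at 59.0 to 86.7 CPM (median 65.6) in P20 control eyes and at 83.9 to 240 CPM (median 160) in Nrf2 eyes. At P40 it ranged from 67.1 to 146 CPM (median 86.1) and from 130 to 321 CPM (median 243). The groups overlapped at both ages, at P20 only through the libraries of mice 3 and 4. Its log2 fold change was 1.32 ± 0.18 (adjusted P = 0.0111) at P20 and 1.20 ± 0.21 (adjusted P = 0.00456) at P40, and the Nrf2 eye was higher in all 16 mice.

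Cbr3, its neighbour on the chromosome, was low in control eyes, with 6.63 to 28.6 CPM (median 8.48) at P20 and 7.71 to 21.3 CPM (median 13.8) at P40. In Nrf2 eyes it ranged from 31.1 to 197 CPM (median 112) at P20 and from 81.3 to 236 CPM (median 165) at P40. The groups did not overlap at either age. The log2 fold change was 3.39 ± 0.36 (10.5-fold, adjusted P = 0.00921) and 3.49 ± 0.17 (11.2-fold, adjusted P = 2.64e-06). The spread of the eye differences over mice was smaller at P40 (SD 0.41 log2 CPM, 9 mice) than at P20 (SD 1.04, 7 mice), a comparison of spreads that was not tested.

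Ephx1, the epoxide hydrolase, stood between 106 and 234 CPM (median 139) in control and between 234 and 800 CPM (median 545) in Nrf2 eyes at P20. The ranges touched only at the libraries of mice 3 and 4, which held 233.98 and 233.81 CPM. At P40 it ranged from 153 to 267 CPM (median 209) in control and from 390 to 949 CPM (median 576) in Nrf2 eyes, without overlap. The log2 fold change was 1.90 ± 0.23 (adjusted P = 0.00921) at P20 and 1.42 ± 0.17 (adjusted P = 0.000457) at P40.

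Ptgr1, the alkenal reductase, reached the highest level of the 5 that rose. It ranged from 316 to 2115 CPM (median 1228) in Nrf2 eyes at P20 and from 904 to 2873 CPM (median 1778) at P40. In control eyes it ranged from 26.1 to 332 CPM (median 84.0) and from 30.2 to 604 CPM (median 141), a spread of more than 10-fold between the lowest and the highest eye. The groups overlapped at P20, through mice 3 and 4, and not at P40. The log2 fold change was 3.61 ± 0.49 (12.2-fold, adjusted P = 0.0110) and 3.98 ± 0.40 (15.7-fold, adjusted P = 0.000125). The smallest eye difference was that of P40 mouse 8 (1.66 log2 CPM), whose control eye held the 604 CPM.

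**Figure D2:**
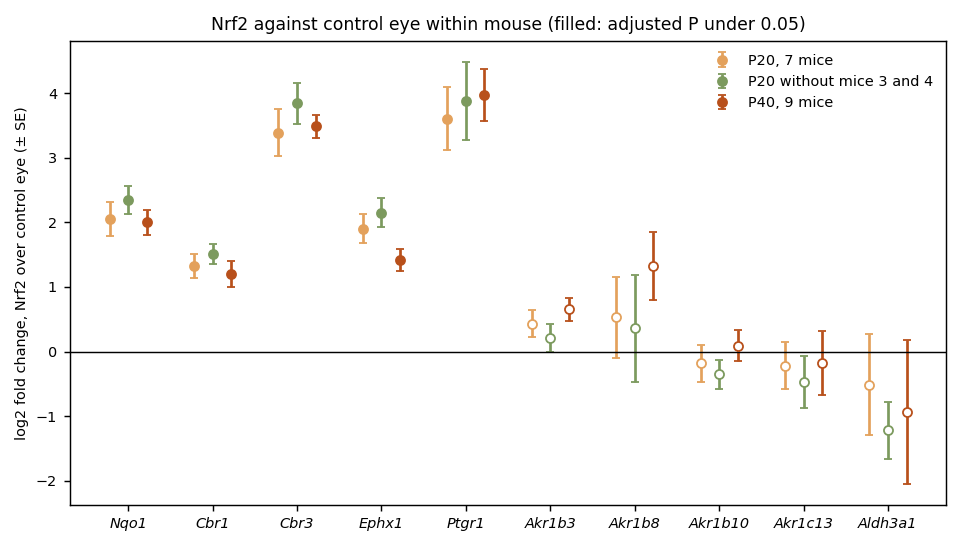
Log2 fold change of the Nrf2 over the control eye, with its SE, for each enzyme gene at P20 (7 mice), at P20 without mice 3 and 4 (5 mice) and at P40 (9 mice), filled where the adjusted P was under 0.05. The 5 genes on the left are filled in all 3 fits, and the 5 on the right are open.

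Without P20 mice 3 and 4, the log2 fold changes at P20 were higher, at 2.35 for Nqo1 (adjusted P = 0.00360), 1.51 for Cbr1 (adjusted P = 0.00511), 3.84 for Cbr3 (adjusted P = 0.00348), 2.15 for Ephx1 (adjusted P = 0.00522) and 3.88 for Ptgr1 (adjusted P = 0.0207). All 5 also passed in each of the 7 fits at P20 and the 9 at P40 that left out a mouse. With the corneal marker sum as a covariate, a fit chosen after seeing the data, the P20 and P40 values were 1.91 and 1.88 for Nqo1, 1.21 and 1.03 for Cbr1, 3.23 and 3.42 for Cbr3, 1.79 and 1.41 for Ephx1, and 3.59 and 4.16 for Ptgr1, and each passed the test.

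The 4 aldo-keto reductases did not pass the test. Akr1b3, which reduces glucose and lipid aldehydes, ranged from 31.1 to 84.5 CPM (median 52.0) in control eyes and from 43.1 to 129 CPM (median 66.7) in Nrf2 eyes at P20. At P40 it ranged from 39.1 to 123 CPM (median 55.5) and from 57.2 to 266 CPM (median 84.5). The Nrf2 eye held more in 6 of 7 and in 8 of 9 mice. The log2 fold change was 0.43 ± 0.21 (adjusted P = 0.312) and 0.65 ± 0.18 (adjusted P = 0.0631), so that at P40 it lay just outside the threshold. DESeq2 (adjusted P = 0.0140), limma voom (adjusted P = 0.0226), a fit over all 32 libraries (adjusted P = 0.0266) and a fit without mouse 5 (log2 fold change 0.76, adjusted P = 0.0338) put it inside. These were 4 of 18 other fits at P40, and the rest did not call it, with adjusted P values of up to 0.267.

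Akr1b8 was barely expressed, with medians of 1.02 and 1.42 CPM in control and Nrf2 eyes at P20 and 0.808 and 2.23 CPM at P40. The lowest library held 2 counts. Its log2 fold change of 1.32 ± 0.52 at P40 (adjusted P = 0.267) rested on ranges that overlapped, from 0.0795 to 7.52 CPM in control and from 1.03 to 7.55 CPM in Nrf2 eyes, with the Nrf2 eye higher in 8 of 9 mice. DESeq2 (adjusted P = 0.0431) and the fit with the corneal marker sum (log2 fold change 1.79, adjusted P = 0.0235) called it higher. At P20 the change was 0.53 ± 0.62 (adjusted P = 0.689).

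Akr1b10 and Akr1c13 were near 0 in both comparisons. Akr1b10 had medians of 10.2 and 10.2 CPM in control and Nrf2 eyes at P20 and of 15.99 and 13.7 CPM at P40, with log2 fold changes of -0.18 ± 0.28 (adjusted P = 0.774) and 0.09 ± 0.24 (adjusted P = 0.953). Akr1c13 had medians of 4.36 and 3.22 CPM at P20 and of 6.69 and 3.51 CPM at P40, with log2 fold changes of -0.22 ± 0.36 (adjusted P = 0.788) and -0.17 ± 0.49 (adjusted P = 0.956).

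Aldh3a1 differed from the rest in its level, with the highest mean CPM per kilobase of transcript in every group. Its eye differences had the widest spread among the members, with an SD of 2.40 log2 CPM at P20 and 3.25 at P40. Relative to the mean, its SD in CPM was the largest in control eyes at P20 and Nrf2 eyes at P40. In the other groups that of Akr1b8 was larger. The Aldh3a1 enzyme is an abundant soluble protein of the corneal epithelium. It ranged from 85.4 to 6279 CPM (median 1979) in control eyes and from 334 to 3268 CPM (median 1303) in Nrf2 eyes at P20. At P40 the range was from 212 to 15720 CPM (median 3659) and from 110 to 12404 CPM (median 1210). The Nrf2 eye was higher in 1 of 7 mice and in 4 of 9. The log2 fold change was -0.51 ± 0.78 (adjusted P = 0.767) at P20 and -0.93 ± 1.11 (adjusted P = 0.850) at P40, so the error was larger than the change. With the corneal marker sum in the fit the values were 0.35 (adjusted P = 0.223) and 0.10 (adjusted P = 0.911), the opposite sign and again not past the threshold.

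The level of Aldh3a1 followed the corneal and conjunctival marker sum from eye to eye. These relations, 20 in all (10 members in control and in Nrf2 eyes), were computed after the levels were seen, with Benjamini-Hochberg adjustment over the 20. In the 16 control eyes Pearson's r of the log2 values was 0.983 and Spearman's rho 0.959 (two-sided permutation P = 1e-05 for each, the smallest that 100000 resamples can give, adjusted P = 6.67e-05 and 5e-05). In the 16 Nrf2 eyes r was 0.958 and rho 0.991 (permutation P = 1e-05 for each, adjusted P = 6.67e-05 and 5e-05). Without the 2 eyes farthest from the median sum r was 0.964 and 0.982. Within the 4 groups r lay between 0.958 and 0.999. The Nrf2 eyes of P40 mice 3 and 6, in which the corneal keratin Krt12 was at 1.90 and 1.32 CPM, held 241 and 110 CPM of Aldh3a1. The sum of all the corneal and conjunctival markers was 1074 CPM in the eye of mouse 3 and 111 CPM in that of mouse 6.

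Ptgr1 followed the same sum in control eyes (r = 0.862, permutation P = 1e-05, adjusted P = 6.67e-05; rho = 0.882, permutation P = 2e-05, adjusted P = 8e-05; r = 0.840 without the 2 farthest eyes). In Nrf2 eyes it did not (r = -0.277, permutation P = 0.294, adjusted P = 0.346; rho = -0.268, permutation P = 0.319, adjusted P = 0.376). Whether these coefficients differ was not tested. The low aldo-keto reductases also followed the sum in control eyes, Akr1b8 with r = 0.841 (permutation P = 4e-05, adjusted P = 0.0002) and rho = 0.932 (permutation P = 1e-05, adjusted P = 5e-05). Akr1b10 had r = 0.760 (permutation P = 0.00071, adjusted P = 0.00237) and rho = 0.841 (permutation P = 0.0001, adjusted P = 0.000333). Akr1c13 had r = 0.774 (permutation P = 0.00043, adjusted P = 0.00172) and rho = 0.879 (permutation P = 1e-05, adjusted P = 5e-05). Without the 2 farthest eyes r was 0.894, 0.770 and 0.823 for these 3. For Nqo1, Cbr1, Cbr3, Akr1b3 and Ephx1 r lay between -0.365 and 0.413 in control eyes, with adjusted permutation P values of 0.204 or more. Within the 9 P40 control eyes alone r was -0.824 for Nqo1, -0.604 for Cbr1 and 0.501 for Cbr3. For Nqo1 it was -0.117 in P20 control eyes, and -0.523 and -0.222 in Nrf2 eyes at P20 and P40. Coefficients within a group were not tested.

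In Nrf2 eyes, Akr1c13 followed the corneal sum with r = 0.694 (permutation P = 0.00311, adjusted P = 0.00889) and rho = 0.818 (permutation P = 0.00017, adjusted P = 0.000486), and with r = 0.802 without the 2 farthest eyes. Akr1b10 had r = 0.531 (permutation P = 0.0343, adjusted P = 0.0856) and rho = 0.600 (permutation P = 0.0163, adjusted P = 0.0409), and r = 0.684 without the 2 farthest eyes. The remaining members had r between -0.449 and 0.367, with adjusted permutation P values of 0.172 or more.

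**Figure D3:**
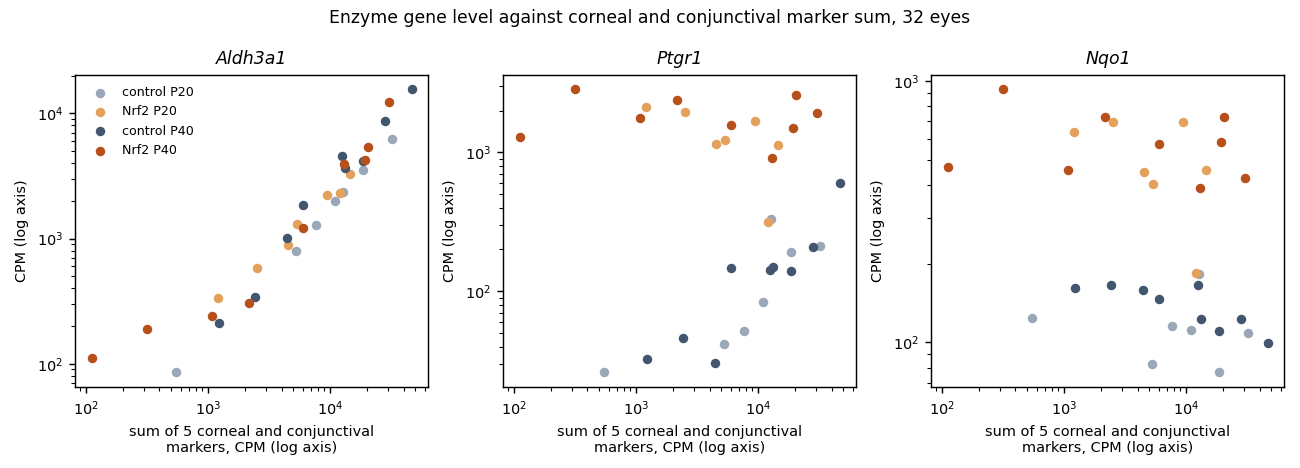
CPM of Aldh3a1, Ptgr1 and Nqo1 against the summed CPM of 5 corneal and conjunctival markers in the 32 eyes, on log axes, coloured by group. Aldh3a1 rises with the sum in all groups, but not in fixed proportion. It was 13.9% of the sum in the control eye of P40 mouse 9 and 99.6% in the Nrf2 eye of P40 mouse 6. Ptgr1 rises only among control eyes. Nqo1 lies in an upper band of Nrf2 eyes and a lower band of control eyes, with the libraries labelled control of P20 mouse 3 and Nrf2 of P20 mouse 4 between.

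The next question was whether eyes with more transgene held more enzyme. Over the 16 Nrf2 eyes, with adjustment over the 10 members, Pearson's r between log2 CPM of NFE2L2 and of the enzyme was 0.906 for Nqo1 (permutation P = 5e-05, adjusted P = 0.0004), 0.878 for Cbr3 (permutation P = 0.00029, adjusted P = 0.000725), 0.872 for Ptgr1 (permutation P = 0.00018, adjusted P = 0.0006), 0.865 for Ephx1 (permutation P = 8e-05, adjusted P = 0.0004) and 0.772 for Cbr1 (permutation P = 0.0018, adjusted P = 0.0036). Spearman's rho was 0.788 (permutation P = 0.00046, adjusted P = 0.0021), 0.779 (permutation P = 0.0006, adjusted P = 0.0021), 0.750 (permutation P = 0.0012, adjusted P = 0.0030), 0.785 (permutation P = 0.00063, adjusted P = 0.0021) and 0.535 (permutation P = 0.0342, adjusted P = 0.0570) in the same order. The library labelled Nrf2 of P20 mouse 4 lay far below the others. Without it and P40 mouse 8, the 2 eyes farthest from the median, r was 0.792, 0.845, 0.884, 0.699 and 0.813, with adjusted permutation P values from 0.0005 to 0.0139.

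Within age the picture was uneven. In the 7 eyes at P20, which include mouse 4, r was between 0.974 and 0.995 for these 5 genes, with exact permutation P values adjusted to between 0.00556 and 0.00827. In the 9 eyes at P40 r was 0.747 for Nqo1, 0.697 for Ephx1, 0.602 for Cbr3, 0.591 for Ptgr1 and 0.416 for Cbr1, and none passed (adjusted exact permutation P from 0.156 to 0.383). Of the other members, Akr1b8, Akr1b10, Akr1c13 and Aldh3a1 had negative coefficients over the 16 eyes, from -0.468 for Aldh3a1 (rho = -0.568, permutation P = 0.0241, adjusted P = 0.0482, while P for r was 0.0611 and adjusted 0.102) to -0.0348 for Akr1b8. Akr1b3 had r = 0.166 (permutation P = 0.498, adjusted P = 0.553), and r = 0.598 (adjusted permutation P = 0.0412) without the 2 farthest eyes. Within P20 alone Akr1b10 had r = -0.829 (exact permutation P = 0.00278, adjusted P = 0.00556), and within P40 r = -0.293.

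**Figure D4:**
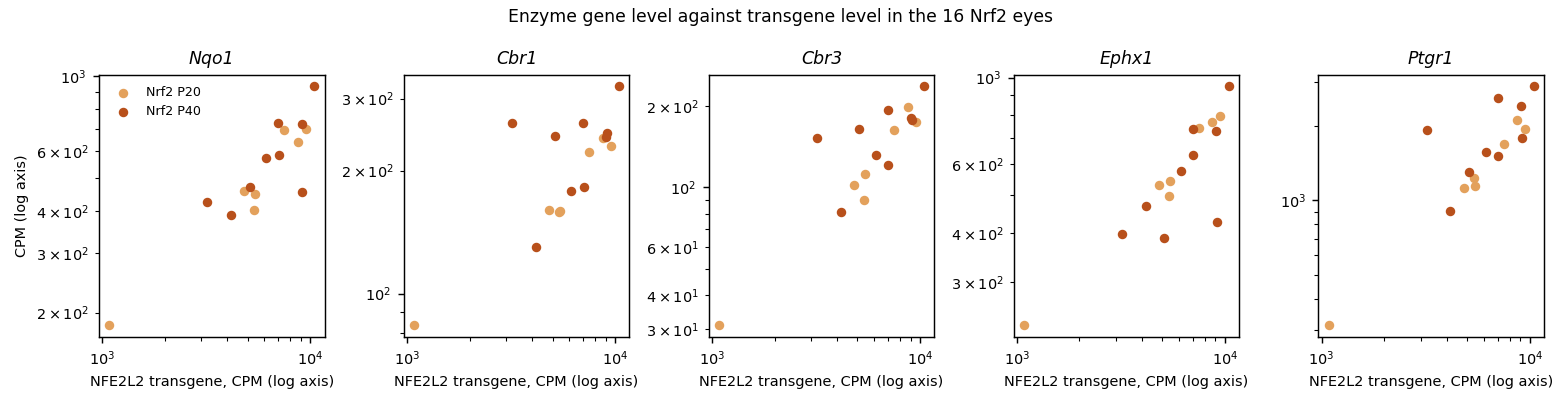
CPM of the 5 enzyme genes that rose against CPM of the NFE2L2 transgene in the 16 Nrf2 eyes, on log axes, coloured by age. The single point at 1082 CPM of transgene is the library labelled Nrf2 of P20 mouse 4, the lowest in all 5 panels, and the P40 eyes are scattered more loosely than the P20 eyes.

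The comparison of P40 with P20 set different mice of the 2 ages side by side. Since CD1 pairs may be among the P40 mice, age and strain cannot be told apart in it or in the other comparisons between ages. Nor can age and any batch behind the letter that opens the library titles. The comparison shares its control eyes with the comparisons within mouse. In control eyes, Ephx1 rose by 0.52 ± 0.16 on the log2 scale (adjusted P = 0.0430) and Cbr1 by 0.58 ± 0.19 (adjusted P = 0.0484), so 2 of 10 members rose and 0 fell, while 8.34% of 16832 genes rose and 6.42% fell. Mean Ephx1 went from 148 ± 41.6 CPM (SD, n = 7) to 208 ± 32.4 (SD, n = 9), and mean Cbr1 from 67.4 ± 9.65 to 97.6 ± 29.3. Both calls were close to the threshold. The median RPE marker sum in these eyes was 15073 CPM at P20 and 33933 CPM at P40, and its part in the calls was not tested. Without P20 mice 3 and 4 the fold changes were 0.65 (adjusted P = 0.0679) and 0.67 (adjusted P = 0.0969), and each gene passed in only 4 of 16 fits that left out an eye, with adjusted P values from 0.0301 to 0.0980 for Ephx1 and from 0.0311 to 0.107 for Cbr1. The other 8 had log2 fold changes from 0.24 for Akr1b10 to 0.98 ± 0.81 for Aldh3a1, none past the threshold. Over all 10 members the median was 0.36, beside -4.61e-05 over all genes tested. Aldh3a1 was called with the corneal marker sum in the fit (0.57, adjusted P = 0.0341). Mouse Nfe2l2 was also called higher at P40 than at P20 in control eyes (0.46 ± 0.14, adjusted P = 0.0438 in edgeR), close to the threshold.

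In Nrf2 eyes 0 of 10 members were called different between the ages, beside 0.502% of 16745 genes, and DESeq2 called 0 as well. The median log2 fold change was 0.43 over the 10 members and 0.02 over all genes tested. Whether the members shifted as a set was not tested. At an unadjusted P under 0.05 in edgeR there were 0 of 10 members and 4326 of the 16745 genes. limma voom called Akr1b10 higher at P40 (0.59, adjusted P = 0.0379), where edgeR gave 0.51 ± 0.24 (adjusted P = 0.198). The values of the 5 genes that were higher in the Nrf2 eye were 0.24 ± 0.26 for Nqo1, 0.39 ± 0.23 for Cbr1, 0.39 ± 0.30 for Cbr3, 0.02 ± 0.25 for Ephx1 and 0.48 ± 0.33 for Ptgr1.

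The test of whether the Nrf2 change itself differed between ages called 0 of 10 members, beside 0.00557% of 17959 genes, and DESeq2 and limma voom called 0 as well. At an unadjusted P under 0.05 in edgeR there were 0 of 10 members and 429 of the 17959 genes. The P40 change minus the P20 change was -0.04 ± 0.32 (log2) for Nqo1, -0.11 ± 0.29 for Cbr1, 0.10 ± 0.36 for Cbr3, 0.38 ± 0.61 for Ptgr1 and -0.48 ± 0.28 for Ephx1 (unadjusted P = 0.108, adjusted P = 0.9995). These errors do not show that the change was equal at the ages.

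Levels can be ordered between genes only per transcript length, and the order given here is of mean CPM per kilobase of the principal transcript. In control eyes at P20 it ran from Aldh3a1 (1346 ± 1195, SD, n = 7), Ephx1 (85.3 ± 23.9), Nqo1 (73.8 ± 22.3), Ptgr1 (58.5 ± 49.7), Cbr1 (54.5 ± 7.80), Akr1b3 (36.6 ± 12.7), Cbr3 (9.82 ± 6.62), Akr1b10 (8.67 ± 2.91) and Akr1c13 (3.72 ± 1.80) to Akr1b8 (1.08 ± 0.913). From Ephx1 to Akr1b3 the mean ± SD ranges of neighbours overlapped. In control eyes at P40 the order was the same except that Cbr1 (78.9 ± 23.7) came before Ptgr1 (72.6 ± 76.4), whose ranges overlapped. In Nrf2 eyes at P20, Ptgr1 (594 ± 265) stood next after Aldh3a1 (899 ± 619), followed by Ephx1 (338 ± 115) and Nqo1 (324 ± 121), with overlapping ranges, and Cbr3 (106 ± 49.1) had come above Akr1b3 (51.0 ± 20.2). At P40 the order in Nrf2 eyes was the same except that Nqo1 (378 ± 115) and Ephx1 (339 ± 109) changed places within 1 SD.

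Across the 16 mice, the genes whose eye difference was most like that of a responding member were sought among 12318 genes of at least 4 CPM, as a description. They were Tuba4a, Ndrg2 and Ypel5 for Nqo1 (r = 0.933, 0.913 and 0.901), Gm3776, Pebp1 and Fopnl for Cbr1 (0.941, 0.941 and 0.935), Gstm1, Esd and Blvrb for Cbr3 (0.8995, 0.878 and 0.869), Plbd2, E2f6 and Ctsd for Ephx1 (0.933, 0.912 and 0.874), and Rps2 and Osgin1 for Ptgr1 (0.825 and 0.803). All come from the same libraries and share their depth and normalization. Gstm1 encodes a glutathione transferase, Blvrb a biliverdin reductase and Esd an esterase that hydrolyses S-formylglutathione.

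Of 58 other quinone, carbonyl, aldehyde and epoxide enzymes, 49 were tested in each eye comparison. At P20, 5 of 49 rose and 0 fell, and at P40 5 of 49 rose and 0 fell, where 2.93% and 3.33% of all genes tested rose. Their median log2 fold change was 0.12 at P20 and 0.09 at P40. Aox1 and Aldh7a1 rose at both ages. Aox1, an aldehyde oxidase, rose by 4.29 ± 0.56 (adjusted P = 0.0102) at P20 and 4.57 ± 0.39 (adjusted P = 4.05e-05) at P40. It went from a median of 1.46 to 42.7 CPM at P20 and from 1.39 to 44.1 CPM at P40, and its fitted folds lay above those of Ptgr1 by less than the sum of the SEs. Aldh7a1, which oxidizes aminoadipic semialdehyde and other aldehydes, rose by 0.97 ± 0.17 (adjusted P = 0.0243) and 1.13 ± 0.17 (adjusted P = 0.00191). The next largest called change at P20 was that of Akr1e1 (0.64 ± 0.13, adjusted P = 0.0349). The largest at P40 beside Aox1 were those of Akr1c14 (3.64 ± 0.64, adjusted P = 0.00567), an aldo-keto reductase of steroids, and Aldh3b1 (1.84 ± 0.36, adjusted P = 0.0116). Akr1c14 reached a median of only 4.07 CPM in Nrf2 eyes.

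By class, 2 of 19 tested aldehyde dehydrogenases rose at P20 and 2 of 18 at P40, 1 of 6 and 1 of 7 aldo-keto reductases, 0 and 1 of 3 epoxide hydrolases, and 0 of 8 carbonyl reductases and 0 of 3 quinone enzymes at either age. In control eyes 6 of 49 rose from P20 to P40 and 0 fell, not far from the 8.34% of all genes that rose, the largest being Akr1e1 (0.74 ± 0.16, adjusted P = 0.0170), the mitochondrial carbonyl reductase Cbr4 (0.67 ± 0.16, adjusted P = 0.0212) and the formaldehyde dehydrogenase Adh5 (0.60 ± 0.20, adjusted P = 0.0492). In Nrf2 eyes 0 of 50 passed, and 0 of 51 in the test of the difference between ages, with 8 of 50 and 1 of 51 at an unadjusted P under 0.05 in edgeR, where 4326 of 16745 and 429 of 17959 of all genes were.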

How the data were processed

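RNA of the RPE was sequenced in 32 libraries from both eyes of 16 mice. The authors deposited 1 table of estimated counts per Ensembl gene, rounded to whole numbers here. The labels name FastQC and Salmon 0.9.1, and the methods describe STAR on mm10 with Ensembl 91, featureCounts and tximport. Which of these counters made the table is not given in the sources used here. An aligner or quantifier that splits reads between near-identical copies can move counts among aldo-keto reductases, and amplification adds noise at low counts.

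Groups came from the labels. Counts were filtered with filterByExpr, scaled by TMM and tested with edgeR 4.0.16 (R 4.3.3, quasi-likelihood, adjusted P under 0.05), with mouse as a block between eyes and none between ages. The replicate number names the mouse in the labels, and the methods pair the eyes. Deviations from the group mean, compared between fellow eyes, correlated by 0.023 on average at P20 and 0.101 at P40. The coefficients of single mice ranged from -0.339 to 0.333 at P20 and from -0.438 to 0.679 at P40. Between mice the average was about 0 (3.98e-06 and -0.00439), but centring on the group mean draws it towards 0 by itself. These values therefore do not decide whether the pairing in the labels is right. Levels are CPM after TMM, and log2 CPM adds a prior count of 2. P values describe the spread between mice. Alternatives were DESeq2 1.42.0, limma 3.58.1 voom, RLE scaling, other filters, a robust fit, all 32 libraries in 1 fit, no block and samples left out. Correlations used SciPy 1.17.1 and Python 3.11.15 with 100000 resamples, or all permutations for fewer than 10 eyes. On simulated data edgeR recovered 82.5% of 200 changed genes among 16139 in the P20 eye comparison. Elsewhere the share ran from 70.0%, where the eye change was compared across ages, to 89.0%, where control eyes were. These shares hold only for changes of the size that was simulated. They do not give the chance of detecting the changes of members that did not pass. The enzyme genes, lists and tests were chosen with earlier results of these data known. The rule for named genes was all 10 members, other enzymes called the same way at both ages or among the 3 largest called changes of a comparison, and the 3 genes most like each responding member, of which 1 is not reported here. Promoter windows come from RefSeq, which had them for 8 of 10 members; Akr1b3 and Aldh3a1 had none.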

Additional observations from a re-analysis of the deposited data

Results flagged for a closer look

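In the 40 combinations of an enzyme gene and a group of eyes, 8 had a highest or lowest eye far from the others of its group by Dixon's gap test on log2 CPM, where chance gives about 1 in 20 groups. Of the 8, 5 were the library labelled Nrf2 of P20 mouse 4, lowest of its group for Nqo1 (184.3 CPM), Cbr1 (83.9 CPM), Cbr3 (31.1 CPM), Ephx1 (233.8 CPM) and Ptgr1 (315.5 CPM). The library labelled control of P20 mouse 3 was the highest of its group for Cbr3 (28.6 CPM). The remaining 2 were Akr1b3 in the Nrf2 eye of P40 mouse 8 (266.0 CPM) and Akr1b8 in the Nrf2 eye of P20 mouse 2 (9.54 CPM), both the highest of their groups. P40 mouse 8 also had the highest corneal marker sum in both groups of P40 eyes (30189 CPM in the Nrf2 and 47251 CPM in the control eye), and whether this bears on Akr1b3 was not tested.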

How the results depend on the processing

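Nqo1, Cbr1, Cbr3, Ephx1 and Ptgr1 passed the test in the Nrf2 comparisons under each alternative at both ages, and the number of members called was 5 in each fit that left out a mouse at P20 and 5 to 6 at P40. The number of all genes called moved more. At P20 it was 556, and 1951 with DESeq2, 2605 with limma voom, 348 with no filter and 111 to 1999 with a mouse left out. Without the replicate block it was 1093 at P20 and 716 at P40, where the paired fit gave 762, and no call of a member changed. At P40 it was 1380 with DESeq2, 1327 with limma voom and 521 to 997 with a mouse left out.

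Between ages in control eyes 2483 genes were called, and 4330 with DESeq2, 3747 with limma voom, 914 with no filter, 158 without P20 mice 3 and 4, and 473 to 4273 with an eye left out. The members called there went from 2 to 1 with limma voom, to 0 with no filter, with all 32 libraries in 1 fit and without P20 mice 3 and 4, and to between 0 and 2 with an eye left out. In Nrf2 eyes 84 genes were called, and 1635 with DESeq2, 2213 with limma voom, 31 with no filter, 496 with all 32 libraries in 1 fit, 20 without P20 mice 3 and 4, and 21 to 190 with an eye left out, and limma voom called 1 member. In the test of the difference between ages 1 gene was called, and 13 with DESeq2.

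Signs turned only for values that did not pass the test in the fits named here. With the corneal marker sum, Aldh3a1 with Nrf2 was 0.35 at P20 and 0.10 at P40, Akr1c13 at P40 0.36, and Akr1b8 between ages in control eyes -0.38. Without P20 mice 3 and 4, Ephx1 between ages in Nrf2 eyes was -0.074, and the difference between ages was -0.38 for Cbr3 and 0.27 for Aldh3a1. Aldh3a1 was 0.056 there without the replicate block (paired eyes not matched), and -0.52 between ages in Nrf2 eyes with limma voom. The correlation with the transgene was -0.28 for Akr1b3 within P40 and 0.041 for Akr1b8 within P20. With a mouse or eye left out, the range was -0.45 to 0.059 for Akr1c13 at P20, -0.49 to 0.067 for Akr1c13 and -0.052 to 0.22 for Akr1b10 at P40, -0.51 to 0.62 for Akr1b8 and -0.22 to 0.75 for Ptgr1 between ages in control eyes, and -0.039 to 1.23 for Akr1b8 and -0.14 to 0.12 for Ephx1 in Nrf2 eyes. For the difference between ages it was -0.28 to 0.13 for Nqo1, -0.14 to 0.32 for Cbr3, -0.27 to 0.29 for Akr1c13 and -1.03 to 0.15 for Aldh3a1. The cause of these shifts was not tested. Akr1b8 came near the depth limit, with 2 counts in its lowest library, where 3 counts, the limit of a count of 0, stand for 0.0566 to 0.182 CPM.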
